A study of Mus musculus with 2 samples.

Results

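The 5 medium-chain acyl-CoA synthetase genes of the mouse (Acsm1, Acsm2, Acsm3, Acsm4 and Acsm5) and the 2 glycine N-acyltransferase family genes Glyat and Keg1 were described in chromatin accessibility data from kidney. They were chosen by name, with earlier results of these data known, as 2 groups of genes that serve the same conjugation pathway. The Acsm genes lie on chromosome 7, and Glyat and Keg1 on chromosome 19. Together they make up 7 of the 21938 protein-coding genes of the GENCODE M21 basic annotation on the chromosomes analysed. DNase-seq, in which the enzyme DNase I cuts DNA that is not covered by nucleosomes, had been carried out on whole kidney from 25-day-old male B6CASTF1/J mice, the F1 hybrid of C57BL/6J and CAST/EiJ, supplied by The Jackson Laboratory. All samples belonged to 1 untreated group of 2 libraries, replicates 1 and 2, which carry the same donor code but different animal numbers. Each value is therefore given for both libraries, and no condition and no difference between animals could be tested. The tissue is a mixture of cell types, so that fewer cells of a type and less accessibility per cell cannot be told apart.

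Medium-chain acyl-CoA synthetases join small carboxylic acids, such as benzoate, salicylate and butyrate, to coenzyme A in the mitochondrion. Glycine N-acyltransferase then moves the activated acyl group to glycine, and the product, for example hippurate from benzoate, leaves the body in urine. Liver and kidney, in the kidney above all the proximal tubule, are the main organs of this detoxification route.

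Peaks were assigned to a promoter when they touched the 500 bp before or after any annotated transcription start site (TSS), and the highest such peak was taken. Height is the deposited signal of the peak, in the authors' units. A promoter peak was present in both libraries at 6 of the 7 genes, against 65.3% of all protein-coding genes (66.2% in replicate 1 and 68% in replicate 2, with the same 6 members in each), and Acsm4 was the exception. All 6 peaks were low. The heights lay between the 4.03 and the 25.8 percentile of all promoter peaks of their library, whose medians were 7.36 in replicate 1 and 6.63 in replicate 2. The 7 promoters were also poor in CpG dinucleotides: the ratio of observed to expected CpG in 500 bp on either side of the 5′ end had a median of 0.177, against 0.571 over all genes. Acsm1, Acsm2, Glyat and Keg1 fell into the second lowest decile of genes by this ratio, in which 16.1% of 2195 genes had a promoter peak in both libraries. Acsm4 and Acsm5 fell into the third (27.6%) and Acsm3 into the fourth (49.2%). Among the open promoters of their own CpG class the 6 genes lay higher, between the 11.7 percentile (Acsm3 in replicate 1) and the 61.3 percentile (Acsm5 in replicate 2). The class was taken at the 5′ end of each gene. For Acsm2 (18.0 percentile in replicate 1 and 41.5 in replicate 2) the ranked peak lay at internal start sites, whose CpG content was not measured.

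**Figure D1:**
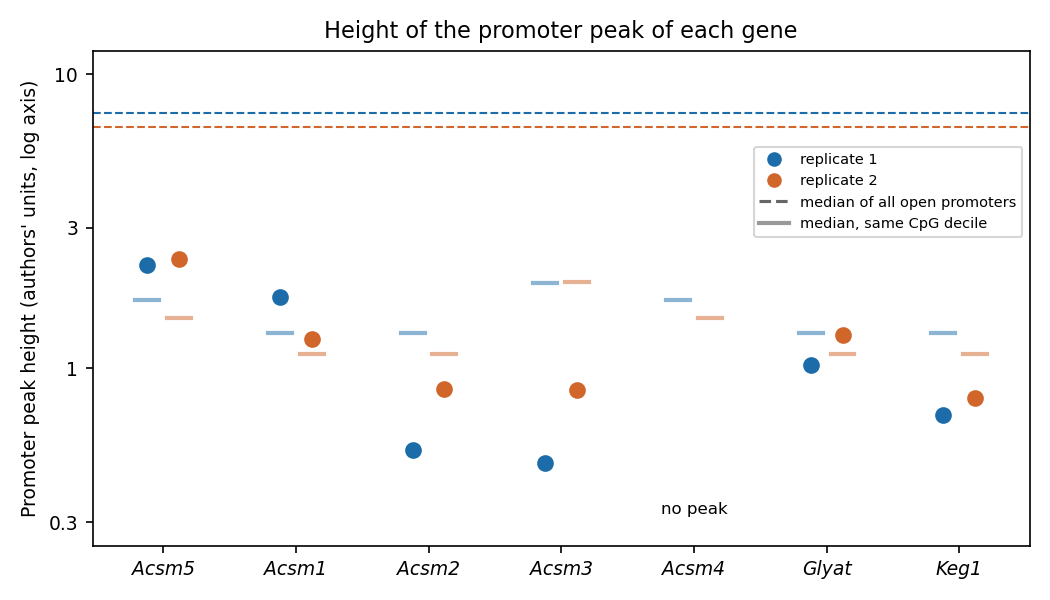
Promoter peak height (authors' units, log axis) of each gene, with replicate 1 in blue and replicate 2 in orange; dashed lines mark the median of all open promoters of each library (7.36 and 6.63) and short bars the median of open promoters of the same CpG decile. Every point lies below the dashed lines, Acsm5 is highest in both libraries, and Acsm4 has no point.

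Acsm5, a mitochondrial member of the synthetase family, had the highest promoter peak of the set. The gene lies on chromosome 7, 119519463 to 119545551, on the plus strand of mm10, and its peak at the 5′ end of the basic annotation (119526208) had a height of 2.24 in replicate 1 and 2.35 in replicate 2 (mean 2.29 ± 0.0782, SD, n = 2). The 2 values differed by 0.07 on the log2 scale, less than those of any other member. The peak held 3 footprints in replicate 1 and 2 in replicate 2. A footprint is a short stretch with fewer cuts than its surroundings, called at a false discovery rate of 0.01.

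Acsm1, which activates medium-chain acids including butyrate and benzoate, came next on the mean of both libraries and in replicate 1, whereas in replicate 2 Glyat was higher. Its promoter peak, on chromosome 7 at the start site 119617781, reached 1.75 in replicate 1 and 1.26 in replicate 2 (mean 1.51 ± 0.347, SD, n = 2), and was the only promoter peak of the 6 that was lower in replicate 2. The annotated gene body runs from 119607026 to 119662515, because a transcript outside the basic annotation starts farther upstream.

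Glyat, the glycine N-acyltransferase gene, lies on chromosome 19, 12633308 to 12653911. Its promoter peak, whose midpoint lay 52.5 bp before the second annotated start site (12633533), had heights of 1.03 in replicate 1 and 1.30 in replicate 2, with 3 footprints in each. Keg1, kidney expressed gene 1, a relative of Glyat 41.9 kb downstream on the same strand (12695786 to 12719902), had a lower peak of 0.692 in replicate 1 and 0.795 in replicate 2. It held 0 footprints in replicate 1 and 1 in replicate 2. In both libraries the Glyat peak stood above the Keg1 peak.

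Acsm3, known from work on hypertensive rats as the SA gene, and Acsm2, a synthetase known from the proximal tubule, had the lowest peaks on the mean of both libraries, although in replicate 2 Keg1 was lower than both. Acsm3 (chromosome 7, 119760923 to 119787513) had heights of 0.479 in replicate 1 and 0.845 in replicate 2. Acsm2 (chromosome 7, 119554340 to 119600690) had heights of 0.530 in replicate 1 and 0.849 in replicate 2. For Acsm2 the peak lay at internal start sites (119561493 and 119561720) and not at the 5′ end, where neither library had a peak. Both promoter peaks held 0 footprints in replicate 1, against 5 at Acsm2 and 2 at Acsm3 in replicate 2. At Acsm3 a replicate 1 footprint (119760899 to 119760905) lay before the start site, but past the end of the narrower replicate 1 peak (119760860). Neither replicate 1 peak was in the stricter of the 2 peak lists deposited for that library. With that stricter list 4 members had a promoter peak in both libraries (62% of all genes), with the 5′ end alone 5 did (62.8%), and 3 had a promoter peak with a footprint in both (62.5%).

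Acsm4, first described from olfactory epithelium, was the member without a promoter peak. The gene (chromosome 7, 119690026 to 119714565) had 0 bases within 500 bp of its start site in the deposited per-base track of significant cutting, which lists bases at a false discovery rate below 0.05. The other 6 members had 187 to 495 such bases in replicate 1 and 251 to 807 in replicate 2. An empty promoter window is the usual state of a gene without a promoter peak: 97.8% of such genes in replicate 1 and 97.7% in replicate 2 had 0 bases listed. All 970 words of 32 bases in the window around the Acsm4 start site occur once in the reference, so the window is unique at that word length. No interval or floor can be given for the missing peak, since read numbers were not used here.

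The reference sequence just upstream of the start site is shown for the 4 promoters in which the peak reaches past the annotated exon. These stretches lay in a peak of at least 1 library. Parts of the Acsm1, Acsm3 and Keg1 stretches were in the peak of 1 library only. The Keg1 bases before 12695741 were in the replicate 1 peak only, and the Acsm3 bases past 119760860 in the replicate 2 peak only. Each is on the plus strand of mm10, in the direction of transcription, and capitals mark bases inside footprints of both libraries.
Acsm5, chr7:119526101-119526207: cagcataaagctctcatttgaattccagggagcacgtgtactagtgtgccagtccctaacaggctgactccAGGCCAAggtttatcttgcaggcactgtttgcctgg
Acsm1, chr7:119617661-119617780: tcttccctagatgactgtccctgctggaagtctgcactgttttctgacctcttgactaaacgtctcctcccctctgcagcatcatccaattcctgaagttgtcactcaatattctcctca
Acsm3, chr7:119760752-119760922: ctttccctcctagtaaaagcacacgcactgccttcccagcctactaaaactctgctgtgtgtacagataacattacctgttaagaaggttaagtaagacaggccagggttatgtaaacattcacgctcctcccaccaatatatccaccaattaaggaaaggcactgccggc
Keg1, chr19:12695661-12695785: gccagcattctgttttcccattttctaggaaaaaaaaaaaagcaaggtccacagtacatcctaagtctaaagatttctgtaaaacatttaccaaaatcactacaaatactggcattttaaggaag
Of these 4 stretches, the Acsm5 one held the only footprinted bases common to both libraries. The matching part of the Glyat and Acsm2 peaks falls on exon sequence and is not printed. The Acsm1 promoter peak held 2 footprints in replicate 1 and 3 in replicate 2. Some of them overlapped between the libraries, past the start site and so outside the printed stretch.

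The members are paralogs with diverged coding sequences. Over aligned bases, the 10 pairs of Acsm coding sequences were between 62.3% (Acsm1 and Acsm3) and 66.9% (Acsm3 and Acsm4) identical, and Glyat and Keg1 were 73.1% identical. Of the 32-base words in the promoter windows, those of Acsm5 and Keg1 were all found once in the reference, like those of Acsm4. The share was 82.9% at the Acsm2 5′ end, 88.2% at its internal start site 119561493 and 60.6% at an internal Acsm3 start site (119766371). Reads from the repeated parts of those windows cannot be placed uniquely at that length, and the read length was not known. The words of the Acsm2 promoter peak itself were all found once.

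Around the genes, peaks per kb were most frequent at Acsm5 with the flanks used here. A locus was taken as the annotated gene with 10 kb added before and after it. Counting each position once where neighbouring loci overlap, the 7 loci spanned 338.9 kb and held 36 peaks and 62 footprints in replicate 1 and 44 peaks and 131 footprints in replicate 2. At least 1 peak was found in every locus in both libraries, as at 82.9% of all genes. The adjoining Acsm5, Acsm2 and Acsm1 loci, 163.1 kb together, held 24 of the 36 peaks and 32 of the 44.

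Per kb of locus, Acsm5 had 0.174 peaks in replicate 1 and 0.260 in replicate 2, and its mean of 0.217 ranked at the 81.7 percentile of all genes. Acsm1 followed with 0.159 and 0.172 (71.0 percentile). Acsm2 had 0.0904 and 0.181 (61.9 percentile). Acsm3 had 0.0644 and 0.129 (48.3 percentile). The means of Acsm4, Keg1 and Glyat ranked at the 31.4, 36.3 and 28.7 percentiles. The all-gene median was 0.0849 in replicate 1 and 0.117 in replicate 2. Acsm5, Acsm1 and Acsm2 lay above it in both libraries, Acsm2 by little in replicate 1. Acsm4 and Glyat lay below it in both. Keg1 was above it in replicate 1 (0.0907) and below it in replicate 2 (0.0453), and Acsm3 the other way round. The range of Acsm5 over the libraries overlapped that of Acsm2 but not that of Acsm1, and the ranges of Acsm1 and Acsm2, and of Acsm2 and Acsm3, overlapped. With 50 kb on each side Acsm2 (0.171) stood above Acsm5 (0.155), so that the first place of Acsm5 depended on the flank.

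**Figure D2:**
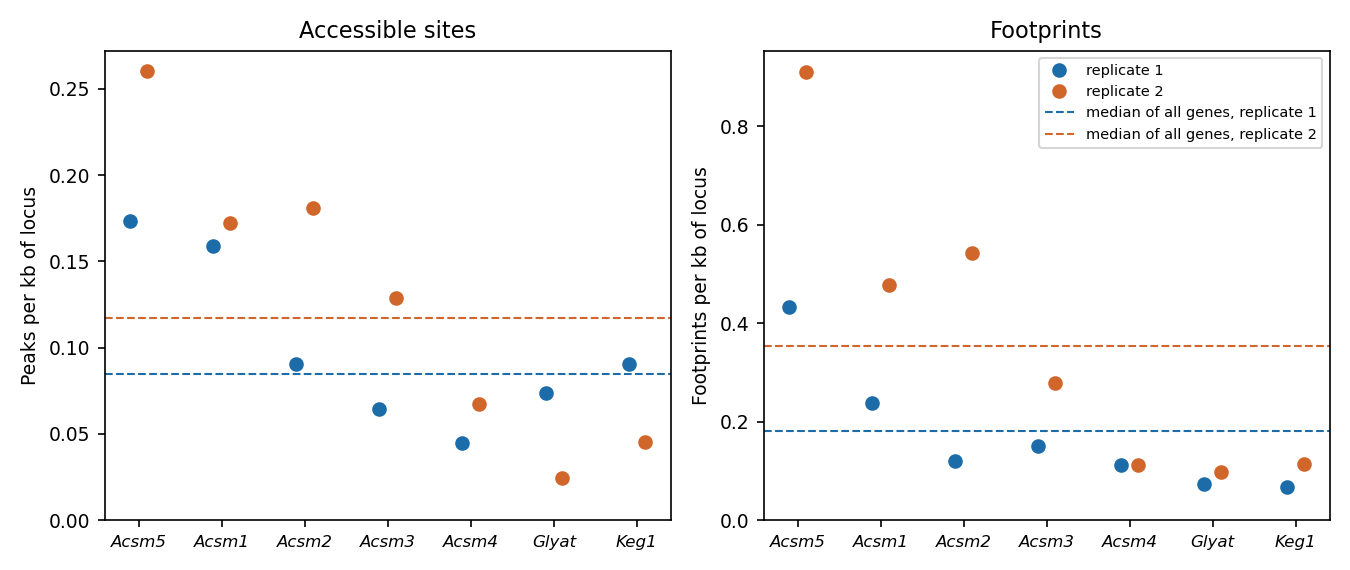
Peaks per kb (left) and footprints per kb (right) of each locus, with replicate 1 in blue and replicate 2 in orange, beside the median of all protein-coding genes in the same library (dashed, 0.0849 and 0.117 peaks per kb). Acsm5 has the highest value in each library and panel, and Acsm4 and Glyat lie under the line of their library in both panels.

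Footprints were most numerous at Acsm5, with 20 in replicate 1 and 42 in replicate 2, beside 18 and 36 at Acsm1 and 8 and 36 at Acsm2. Per kb, Acsm1 stood above Acsm2 in replicate 1 (0.238 and 0.121) and below it in replicate 2 (0.477 and 0.543). Acsm3 had 7 and 13, Acsm4 had 5 and 5, Keg1 had 3 and 5, and Glyat had 3 and 4. Replicate 2 had more footprints than replicate 1 over the whole genome as well, 493495 against 237471.

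Peak counts in the Acsm4 and Acsm3 loci came largely from other genes. In the Acsm4 locus the 2 peaks of replicate 1 and the 3 of replicate 2 all lay at the start of Thumpd1, a THUMP domain gene downstream of Acsm4 on the opposite strand, whose promoter peak (chromosome 7, 119720721 to 119720900) was the highest in any of the 7 loci at 11.04 in replicate 1 and 14.3 in replicate 2. With the gene body alone, Acsm4 had 0 peaks in either library. In the Acsm3 locus the highest peak, 5.42 in replicate 1 and 5.83 in replicate 2, lay at the shared start of Eri2 and Rexo5, exonuclease genes that run in opposite directions (119793961 to 119794160), and a lower peak inside Eri2 (119793409 to 119793558) had 0.342 and 0.606. No neighbouring gene shared a promoter peak with a member.

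The strongest accessibility outside promoters lay upstream of Acsm5. Before its 5′ end, 6 peaks were present in both libraries, at distances of 14.9, 12.97, 10.5, 6.37, 4.19 and 3.62 kb. The farthest, in an intron of Pdilt, a testis-expressed disulfide isomerase gene on the opposite strand, was 5.67 high in replicate 1 and 7.89 in replicate 2, at the 90.2 and 94.9 percentiles of all peaks. The next, also within Pdilt and over an exon of the non-coding gene Gm26967, had heights of 4.45 and 6.34. The peak at 10.5 kb had heights of 1.70 and 4.05, the largest rise between libraries among the shared peaks, 1.25 on the log2 scale. The peak at 6.37 kb had heights of 5.50 and 6.21. It lay 378 bp from an Acsm5 start site that is in the comprehensive annotation but not in the basic one. The peaks at 4.19 kb (4.11 and 5.96) and 3.62 kb (1.03 and 1.95) lay in introns of both Acsm5 and Pdilt. Of the 6 peaks, 4 were higher than the Acsm5 promoter peak in replicate 1 and 5 were in replicate 2.

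Pdilt itself had no promoter peak in either library. On the far side of Pdilt lies Umod, the uromodulin gene of the loop of Henle, which had promoter heights of 1.64 in replicate 1 and 2.34 in replicate 2. Which gene the 6 peaks act on was not tested.

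**Figure D3:**
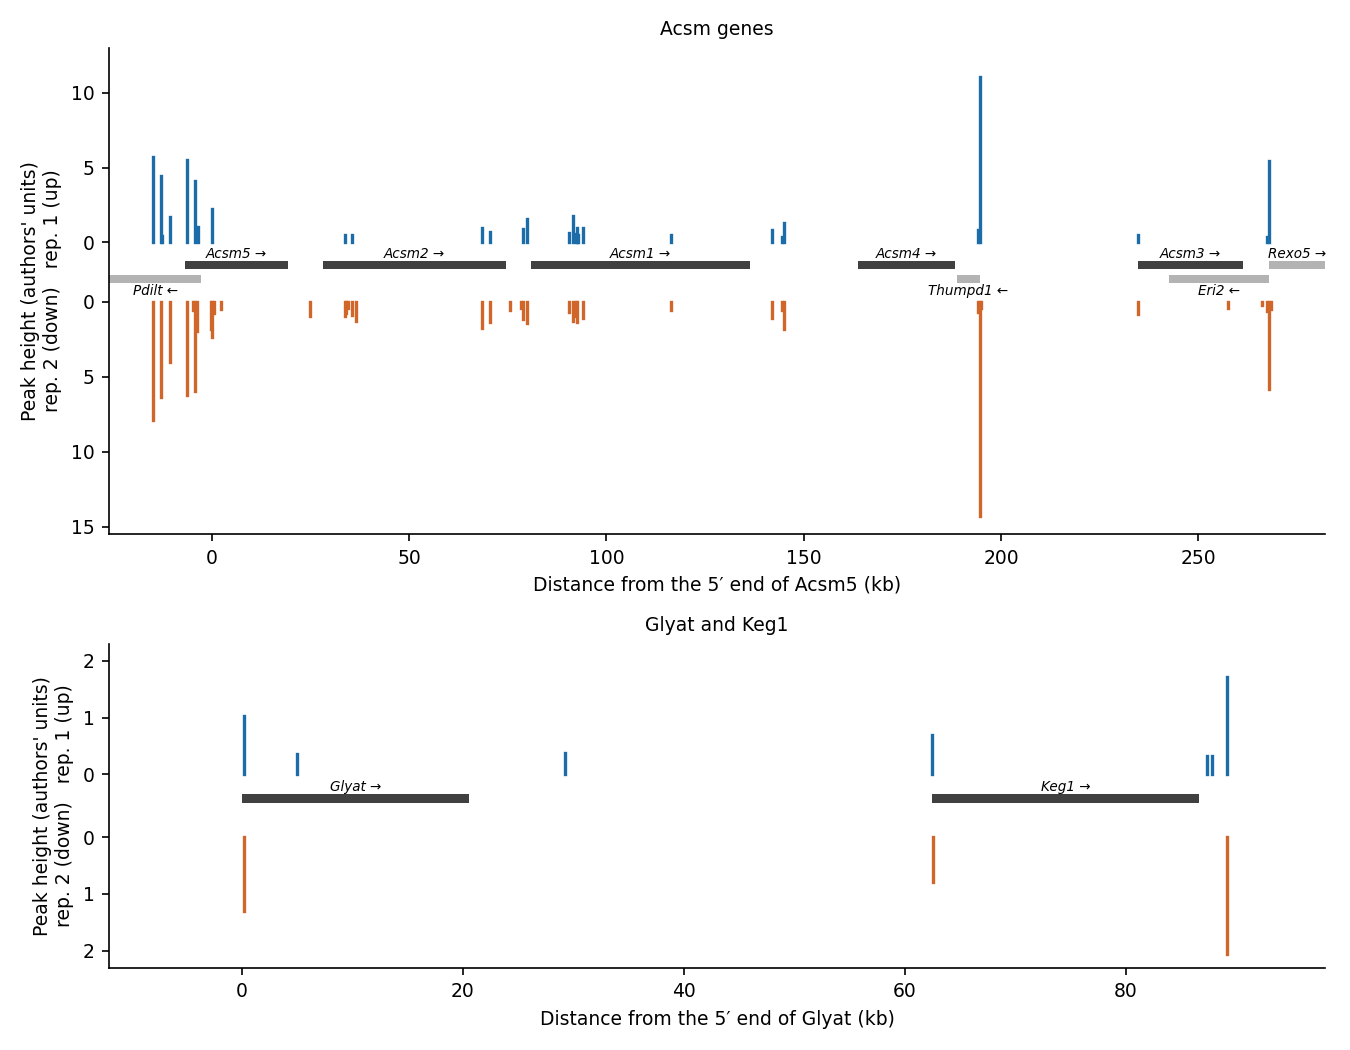
Peaks along the Acsm genes (top, distance in kb from the 5′ end of Acsm5) and along Glyat and Keg1 (bottom, distance from the 5′ end of Glyat), drawn as bars of peak height in the authors' units, replicate 1 upward and replicate 2 downward; dark boxes are members, grey boxes neighbours, and arrows give strand. The tall bars stand before Acsm5, at the start of Thumpd1 (11.04 and 14.3) and at the start of Eri2 and Rexo5 (5.42 and 5.83), while Acsm4 has no bar over its body and Glyat and Keg1 have few.

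The 4 upstream peaks of Acsm5 that lie wholly outside coding-gene exons and have the most footprinted bases are printed in order from the farthest to the nearest, on the plus strand of mm10, with capitals for bases inside footprints of both libraries.
Acsm5 upstream 14.9 kb, chr7:119511221-119511400: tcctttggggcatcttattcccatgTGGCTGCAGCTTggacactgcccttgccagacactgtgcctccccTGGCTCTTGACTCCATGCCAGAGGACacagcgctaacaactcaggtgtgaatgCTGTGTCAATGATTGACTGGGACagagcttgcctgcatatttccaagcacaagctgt
Acsm5 upstream 12.97 kb, chr7:119513161-119513320: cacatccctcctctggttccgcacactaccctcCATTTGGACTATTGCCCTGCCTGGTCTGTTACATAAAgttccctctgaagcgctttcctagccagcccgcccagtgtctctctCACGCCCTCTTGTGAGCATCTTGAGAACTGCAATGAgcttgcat
Acsm5 upstream 10.5 kb, chr7:119515581-119515740: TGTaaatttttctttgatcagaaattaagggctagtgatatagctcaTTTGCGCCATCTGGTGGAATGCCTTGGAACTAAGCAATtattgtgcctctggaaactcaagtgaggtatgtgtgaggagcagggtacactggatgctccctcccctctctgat
Acsm5 upstream 4.19 kb, chr7:119521921-119522120: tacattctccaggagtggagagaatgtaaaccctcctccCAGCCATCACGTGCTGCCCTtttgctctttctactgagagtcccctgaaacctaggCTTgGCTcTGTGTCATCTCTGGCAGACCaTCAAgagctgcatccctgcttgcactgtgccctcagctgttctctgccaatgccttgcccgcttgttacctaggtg
The number of footprinted bases common to both libraries was 61 of 180, 73 of 160, 41 of 160 and 50 of 200 in that order.

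The other loci had lower peaks. Near Acsm1, a peak before the annotated gene (119606021 to 119606220) had heights of 1.55 in replicate 1 and 1.44 in replicate 2, and a peak behind the gene (119671041 to 119671220) had 1.32 and 1.85. A further peak between Acsm2 and Acsm1 at 119604981 to 119605160 had 0.880 and 1.16. It was the promoter peak of the non-coding gene Gm39078, with its midpoint 291 bp from the start of that gene. In Acsm2, the highest shared peak inside the gene, in an intron (119594621 to 119594860), had 1.00 and 1.73. Around Glyat, replicate 1 had 2 further peaks of 0.367 and 0.376 that replicate 2 lacked, and the promoter peak was the only shared one. Behind Keg1, a peak on chromosome 19 (12722421 to 12722580) had heights of 1.71 in replicate 1 and 2.06 in replicate 2. It was 2.47 times as high as the Keg1 promoter peak in replicate 1 and 2.59 times in replicate 2.

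The 200 bp at the centre of each peak were searched on both strands for the letters of 11 motifs. A match is a description of the sequence and not evidence of binding. For hepatocyte nuclear factor 4 (HNF4), a regulator of proximal tubule and liver genes, the letters CAAAGTCCA occurred in 1 member peak, the Glyat promoter. Of the 9 letters, 7 lay in a footprint of replicate 1 and 8 in a footprint of replicate 2. Of all peaks, 0.920% in replicate 1 and 0.956% in replicate 2 hold them. The match lies outside the RefSeq promoter window of Glyat (GRCm38.p6, 250 bases before to 50 after the start), and 0 of the members' RefSeq windows hold the letters, as against 0.475% of 32851 such windows. For CTCF, which marks loop anchors and insulators, the letters CCA, any 2 bases, AG, any 2 bases and GGCA occurred in 1 member peak, the one behind Keg1, with all 13 letters inside a footprint in both libraries (all peaks 5.38% and 4.99%).

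Without the last letter, a form chosen after the first matches had been seen, the CTCF letters occurred in 3 member peaks of each library: behind Keg1, behind Acsm1, and 10.5 kb upstream of Acsm5. In all 3 the 12 letters lay in footprints in both libraries. These are 8.33% of the 36 peaks and 6.82% of the 44, beside 12538 of 125393 and 16183 of 177001 among all peaks (9.14% in replicate 2). On the map, 1 match lies before the Acsm5 gene and 1 past the end of the Acsm1 gene. The peaks 14.9 and 12.97 kb upstream of Acsm5 lie farther out and hold no match. Only peaks of the member loci were searched, and whether these matches mark a boundary was not tested.

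The 4 matches are printed with their flanks on the plus strand of mm10, and capitals mark the matched letters; the matches near Acsm5 and Acsm1 are on the minus strand.
Glyat promoter, HNF4 letters, chr19:12633448-12633472: gcttagagCAAAGTCCAcattttct
Keg1 downstream, CTCF letters, chr19:12722499-12722526: ctggcaagCCAGCAGAGGGCagcagcag
Acsm5 upstream 10.5 kb, CTCF letters, chr7:119515625-119515652: tcatttgcGCCATCTGGTGGaatgcctt
Acsm1 downstream, CTCF letters, chr7:119671128-119671155: tctgcagcGCCCTCTCCTGGgctatctc
The 2 longer peaks behind Keg1 and behind Acsm1 show how much of the surrounding sequence was footprinted in both libraries, again in capitals.
Keg1 downstream, chr19:12722421-12722580: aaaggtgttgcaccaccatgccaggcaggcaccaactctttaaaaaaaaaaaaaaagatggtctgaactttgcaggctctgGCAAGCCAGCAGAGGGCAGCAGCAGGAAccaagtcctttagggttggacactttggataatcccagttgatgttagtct
Acsm1 downstream, chr7:119671041-119671220: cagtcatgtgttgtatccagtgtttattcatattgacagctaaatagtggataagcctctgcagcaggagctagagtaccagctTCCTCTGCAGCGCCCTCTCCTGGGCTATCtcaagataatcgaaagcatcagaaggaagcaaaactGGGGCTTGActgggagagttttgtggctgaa
In the peak behind Keg1 the whole match lies within 1 footprinted stretch of 28 bases, and in the peak behind Acsm1 the match lies within the first of 2 stretches.

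The other motifs occurred in few member peaks. CEBP letters (TTGCNNAA) were in 6 of 36 peaks in replicate 1 and 5 of 44 in replicate 2 (all peaks 7.78% and 8.02%), AP-1 letters (TGANTCA) in 4 and 5 (6.44% and 6.81%), FOX letters (TGTTTAC) in 3 and 3 (2.56% and 2.75%), and GATA letters (AGATAAG) in 2 and 0 (1.62% and 1.78%). The FOX letters include the Acsm3 promoter, where 4 of the 7 letters lay in a footprint of replicate 2 and 0 in replicate 1. Letters of 5 further motifs were not in these windows. They were ERR (TCAAGGTCA), DR1 (AGGTCA, any base, AGGTCA), HNF1 (GTTAAT, any base, ATTA), the androgen and glucocorticoid receptors (G, any base, ACA, any 3 bases, TGT, any base, C) and NFI (TTGGC, any 5 bases, GCCAA). Of all peaks in replicate 1 and 2 they are in 0.488% and 0.586%, 0.0670% and 0.109%, 0.210% and 0.193%, 0.510% and 0.513%, and 0.175% and 0.241%, in that order.

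Most peaks of the loci were found in both animals. Of the 36 replicate 1 peaks, 30 overlapped a replicate 2 peak by at least 1 bp (83.3%, exact 95% binomial interval 67.2 to 93.6), against 87.6% of all peaks. Of the 44 replicate 2 peaks, 30 had a partner (68.2%, 52.4 to 81.4), against 62.2%. These intervals cover counting error only. With the stricter list all 19 replicate 1 peaks had a partner, against 94.98% of all peaks.

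The peaks seen in replicate 1 alone were 6, with heights from 0.316 to 0.521 and widths from 54 to 96 bp. Their median height of 0.372 was below that of the shared member peaks (1.00 in replicate 1). It was not below the 0.325 over all 15505 peaks that only replicate 1 had. Of the 6 peaks, 0 held a footprint and 0 were in the stricter list. Those seen in replicate 2 alone were 14, with heights from 0.204 to 1.85. Their median was 0.514, against 0.373 over all peaks that only replicate 2 had. Of the 14 member peaks, 12 held a footprint and 7 were in the stricter list. The highest lay just before the Acsm5 promoter peak (119525841 to 119526020, height 1.85, 4 footprints) and was higher than 99.3% of the 66961 peaks that only replicate 2 had. The next, in an Acsm2 intron (119562601 to 119562740), had a height of 1.29 and 3 footprints. How many of all single-library peaks hold a footprint or are in the stricter list was not counted.

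Shared peaks of the loci were higher in replicate 2. The height was greater there in 27 of 30 pairs (90%), against 64.2% of all shared peaks, with a median log2 ratio of replicate 2 to replicate 1 of 0.43 (SD over peaks 0.39) against 0.18. Within 1 kb of a TSS the median was 0.37 over 15 shared peaks, against -0.01 over all such peaks, and farther away 0.49 over 15, against 0.25. The exceptions were the Acsm1 promoter, the peak before the Acsm1 gene and a peak beside the Thumpd1 start (0.812 and 0.676). At promoters, 5 of 6 members were higher in replicate 2 (median 0.27), against 46.1% of all genes with a promoter peak in both libraries. Peaks of 1 locus share their library, so these shares describe 2 animals and are not a test.

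**Figure D4:**
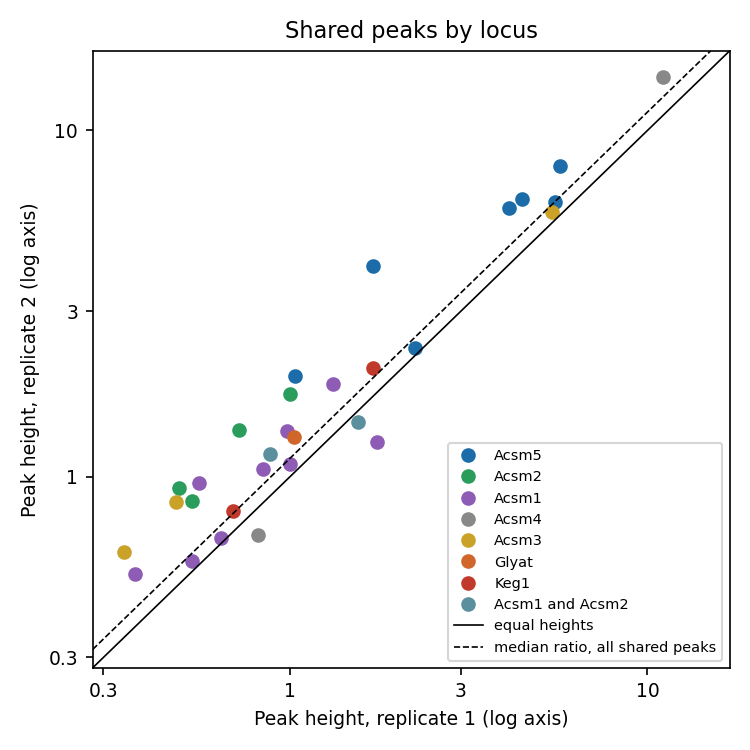
Height of each of the 30 shared peaks in replicate 2 against replicate 1 (authors' units, log axes), coloured by locus; the solid line is equality and the dashed line the median ratio of all shared peaks (0.18 on the log2 scale). Points lie above the solid line for 27 of 30 peaks, and the peak at 1.70 and 4.05 upstream of Acsm5 stands farthest above it.

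Other differences between the libraries are set beside this one, and they do not all go the same way. Replicate 2 had 177001 peaks and replicate 1 had 125393, and low heights rose in steps of 0.00855 in replicate 1 and 0.00497 in replicate 2, a ratio of 1.72. Marker promoters of the proximal tubule, the segment known for these enzymes, went the other way: 6 of 6 (Lrp2, Slc34a1, Slc5a2, Aqp1, Slc13a3 and Slc22a6) were lower in replicate 2, with a median log2 ratio of -0.57 and summed heights of 21.5 and 14.3. Of the 2 loop of Henle markers, Umod was higher in replicate 2 (1.64 and 2.34), and Slc12a1 (0.974 and 0.979) differed by less than 1 height step of either library. Of the 4 hepatocyte markers 0 had a promoter peak in both libraries, and of these Alb, Apoa1 and Serpina1a had none in either. Of the 3 olfactory markers, Gnal had a promoter peak in both libraries while Omp and Cnga2 had none. The part of library depth or cell composition in the ratios was not tested.

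Footprints and heights were also set beside those of all peaks. A footprint was present in 25 of 36 peaks in replicate 1 (69.4%, 51.9 to 83.7), against 73.3% of all peaks, and in 40 of 44 in replicate 2 (90.9%, 78.3 to 97.5), against 86.7%. The median height was 0.859 in replicate 1, beside 0.872 over all peaks, and 1.01 in replicate 2, beside 0.691. By position, 18 peaks of replicate 1 had their midpoint in an intron, 9 in an exon and 9 between genes. In replicate 2 these were 23, 12 and 9. The same split was not counted over all peaks.

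The wider pathway was taken from a list of 24 other genes that activate acids to CoA esters, move acyl groups to amino acids or remove them. Of these 20 had a promoter peak in both libraries (83.3%), beside 65.3% of all genes. The highest on the mean of both libraries were Acsl1, a long-chain acyl-CoA synthetase (22.5 in replicate 1 and 27.7 in replicate 2), Acss2, the cytosolic acetyl-CoA synthetase (17.1 and 23.6), Acy1, an aminoacylase (16.8 and 17.9), and Aacs, acetoacetyl-CoA synthetase (19.2 and 14.6). In replicate 2 the fatty acid transporter gene Slc27a4 (13.6 and 19.5) stood above Acy1 and Aacs. Each of the 4 was above every member of the Acsm and Glyat groups in both libraries, and the median CpG ratio of the list, 0.490, was above that of the members. The 4 genes without a promoter peak in both libraries were Acsbg2, an acyl-CoA synthetase of the bubblegum family, Baat, the bile acid conjugating enzyme of liver, Glyatl3, a Glyat relative, and Gm4952, a predicted gene just upstream of Glyat. The Gm4952 locus held 10 peaks in replicate 1 and 8 in replicate 2, none of them at its start. These counts include the Glyat promoter peak, which lies within 10 kb of the end of Gm4952. In replicate 1 they also include the peak of 0.367 inside Glyat.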

How the data were processed

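DNase-seq libraries from the kidneys of 2 mice (1 group) were analysed. Per the labels and the library notes, the assembly is mm10 and the authors derived the peaks, footprints and cut-rate tracks of each library from that library's own alignments; for the aligner, the peak caller and the handling of CAST/EiJ alleles, names and settings were not given in the sources used here. Deposited peak lists hold a signal, the height of each peak; the longer list of each library was used as the main one and the shorter as the stricter one. The false discovery rate, a q-value, is deposited as 0.01 for every footprint and below 0.05 in the cut-rate track. Depth is not known; steps in low heights give a ratio of 1.72 between libraries.

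Genes came from the GENCODE M21 basic annotation (21938 protein-coding genes, without the mitochondrial chromosome). Promoter peaks overlapped 500 bp on either side of any start site, loci ran 10 kb beyond the gene body, and peaks were shared at an overlap of 1 bp. Intervals are exact binomial ones. Counting was tested on simulated peaks and motifs. No test between animals was possible with 2 libraries. Motifs were exact letter matches. Coding-sequence identity stood in for the planned protein identity. Named were all members, the 3 highest shared peaks of each locus in replicate 1, peaks over height 5, and of the pathway list the 4 highest and 4 closed genes; other peaks named were chosen after their values were seen. The members and lists were chosen with earlier results of these data known. Alternatives were other windows, flanks, peak lists, overlaps and leaving out each library. Python 3.11.15, NumPy 2.4.6 and SciPy 1.17.1 were used.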

Additional observations from a re-analysis of the deposited data

How the results depend on the processing

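The number of members with a promoter peak in both libraries was 6, and stayed within 1.5 times of that except with the upper 50% of peaks by height, where it was 3. The median promoter height, 0.957 over 6 genes, was 1.33 over the 4 genes of the stricter list and 1.14 over the 5 genes open at the 5′ end. Median locus peaks per kb, 0.0966, were 0.0644 with the stricter list, 0.0340 with the upper 50% and 0.0246 without peaks within 1 kb of a TSS, and 0.0904 to 0.129 leaving out either library. Median locus footprints, 10, were 3.5 in the gene body alone and 7 to 13 leaving out either library. The share of replicate 1 peaks with a partner, 83.3%, was 100% with the stricter list. Of the values for these and the remaining summary results under the alternatives, 18 kept within their spread (counts within 1.5 times) and 9 moved; for single genes 71 did and 21 moved. No log2 ratio changed sign in the alternatives run. No paired analysis was possible because there is 1 group. Depth is unknown, so a peak missing from a library was not detectable there and is not shown to be absent. With 2 animals no spread beyond the difference between them can be given. The part of CAST/EiJ alleles, which differ from the reference, was not tested.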
